A study of Mus musculus with 16 samples.

Results

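The genes described here were the chemokines, the secreted or membrane-bound proteins that guide migrating leucocytes, and the receptors that bind them. They were chosen by name alone, from the listed genes whose symbol begins with Ccl, Cxcl, Xcl, Cx3cl, Ccr, Cxcr, Xcr, Cx3cr, Ackr or Ccrl followed by a number. In all, 44 of 6258 named rows in 3 tables are described, 38 of 5716 in quiescent hepatic stellate cells (qHSCs), 1 of 123 in GFP-high activated hepatic stellate cells (aHSCs) and 5 of 419 in GFP-low aHSCs. The 44 rows belonged to 39 distinct genes, of which 34 had a row in 1 table and 5 in 2 tables.

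RNA was sequenced from 16 samples of 9 C57/Bl6 mice, with stellate cells isolated by density centrifugation and then sorted by flow cytometry. The qHSC samples came from 3 uninjured WT1CreERT2;Ai14 animals in which tamoxifen at E10.5 had switched on a red fluorescent lineage label (RFP) in WT1-expressing cells of the embryo. Each animal gave a lineage label-positive and a lineage label-negative fraction, so both groups carry the same Cre and reporter alleles and are told apart only by whether the cell showed the label. These animals are male by the sample labels but female by the study's methods. The aHSC samples came from 6 male animals injured with chronic CCl4 (carbon tetrachloride, a hepatotoxin) for 8 weeks, and all were sorted as RFP-positive. Controls were PDGFRbCre;WT1_+_GFP;Ai14 and the WT1-deleted animals were PDGFRbCre;WT1_fl_GFP;Ai14. The controls therefore also had 1 WT1 allele replaced by GFP, and carried the same Cre, which is active from development onwards in cells that express PDGFRb, and the same reporter. In the GFP-high fraction there were 3 samples of either genotype. In the GFP-low fraction there were 2 of each, and 1 of the control samples was pooled from 2 animals. Of the 6 animals, 5 gave samples to both GFP fractions.

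The deposited values were 1 FPKM (fragments counted on a gene, divided by transcript length and by the fragments mapped in all) for each gene and group, in which the samples of a group had already been combined. No spread between animals, no depth and no test of these values can therefore be given, and "higher" or "lower" below states the order of 2 group values and not a tested difference. Only genes that had passed the threshold of the authors' own comparison have a row, so a chemokine gene without a row was not analysed here. In bulk RNA of a sorted fraction, a lower level because fewer cells of a type were present and a lower level because each cell held less RNA cannot be told apart. The name qHSC is the study's for the isolated cells, and which cells of a fraction held a given RNA was not tested.

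Chemokines act through receptors that cross the membrane and couple to inhibitory G proteins and, through phosphoinositide 3-kinases and Rac, move the actin cytoskeleton of the responding cell. They are named by the spacing of their first cysteines (CC, CXC, XC, CX3C). Atypical chemokine receptors bind the same ligands without G protein signalling and remove or transport them. In liver, stellate cells, sinusoidal endothelium, hepatocytes and Kupffer cells are all known sources of chemokines, whereas the classical receptors are best known on leucocytes.

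In qHSCs, 10 of 11 listed CC chemokines and all 14 receptors described that are not named Ackr were higher in the lineage label-negative fraction. The interferon-inducible chemokines Cxcl9 and Cxcl10, the neutrophil attractant Cxcl1 and the transmembrane chemokine Cxcl16 were higher in the label-positive fraction. So were the atypical receptors Ackr1 and Ackr2. Of the 38 genes, 29 were higher in the label-negative fraction and 9 in the label-positive fraction. Among all 5716 rows of that table, 49.6% were higher in label-negative cells. At a difference of at least 2-fold, 27 chemokine genes were higher in label-negative cells, beside 43.5% of all rows, and 9 were higher in label-positive cells, beside 37.7% of all rows. The log2 ratio of FPKM, label-positive over label-negative, had a median of -2.24 over the 38 genes and of 0.64 over all rows above 0 in both fractions.

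**Figure D1:**
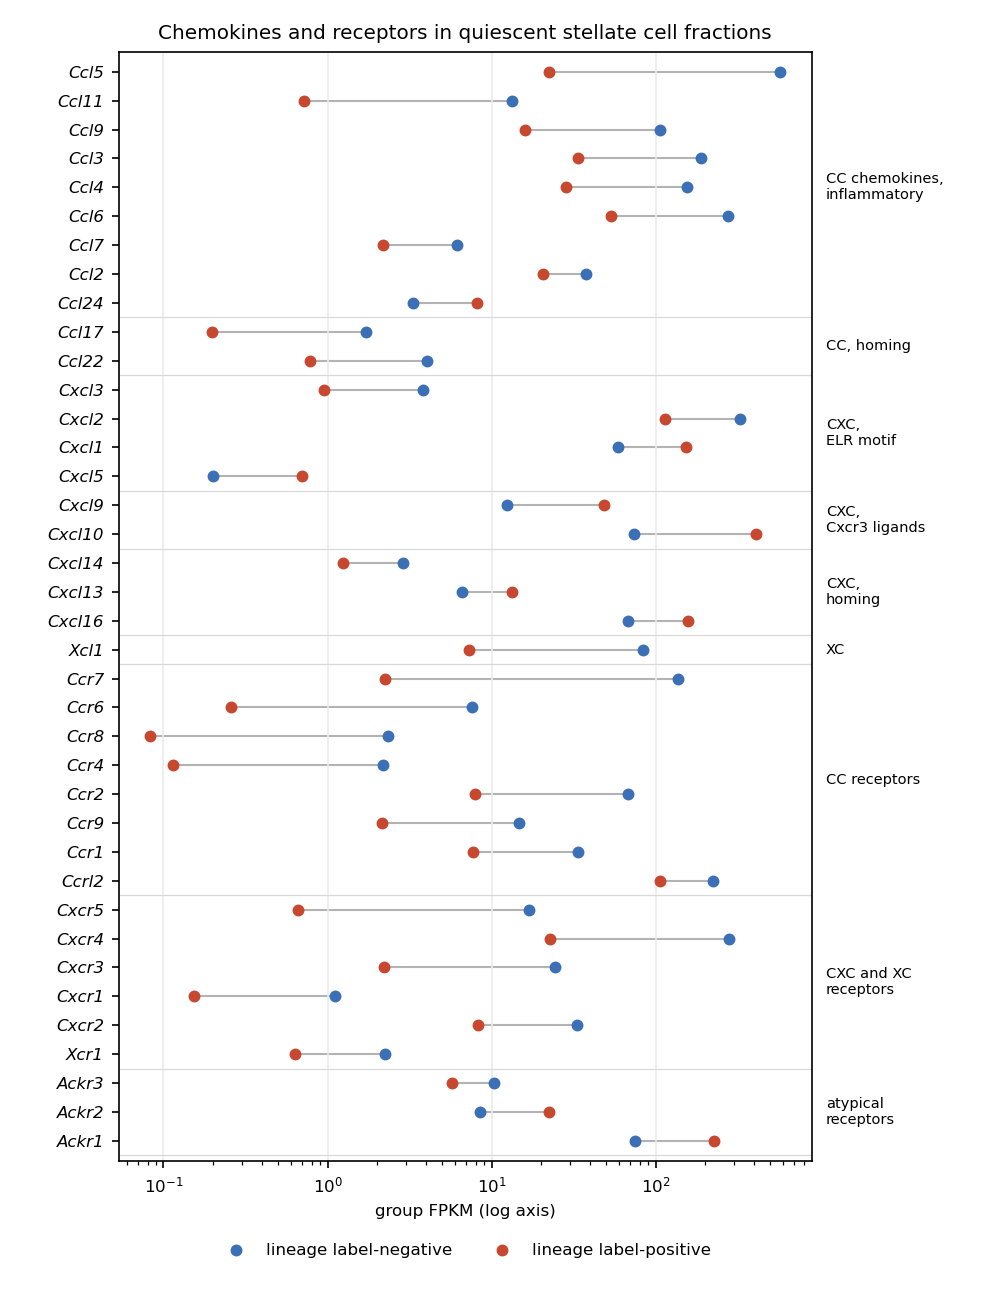
Group FPKM of the 38 chemokine and chemokine receptor genes described for qHSCs (horizontal log axis), 1 gene to a line and grouped by role, with blue points for lineage label-negative and red points for lineage label-positive cells, each point being the combined value of 3 animals. Every receptor from Ccr7 to Xcr1 has its blue point to the right, Cxcl9, Cxcl10, Ackr1 and Ackr2 have their red point to the right, and the values run from 0.0831 for Ccr8 to 575 for Ccl5.

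The inflammatory CC chemokines, which attract monocytes, T cells and granulocytes, had 9 rows, and 8 of them were higher in label-negative cells with a median log2 ratio of -2.44. Ccl5, a T and NK cell product, had the highest FPKM of any chemokine gene, 575 in label-negative against 22.3 in label-positive cells, and ranked 92 of 5716 rows in the former and 1715 in the latter. Ccl3 was at 189 against 33.5 FPKM. Its neighbour Ccl4 was at 155 against 28.6. Ccl3 and Ccl4 therefore differed by nearly the same factor, 5.63-fold and 5.42-fold.

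Ccl6 was at 274 FPKM in the label-negative against 53.4 in the label-positive fraction. Ccl9, like Ccl6 a rodent chemokine that binds Ccr1, was at 106 against 15.9. Ccl11 (eotaxin), which attracts eosinophils through Ccr3, was at 13.3 against 0.719 FPKM, an 18.6-fold difference at a far lower level than Ccl5. With a pseudocount of 1 its log2 ratio was -3.06 in place of -4.21. The monocyte attractants that bind Ccr2 differed less, with Ccl2 at 37.7 against 20.7 and Ccl7 at 6.12 against 2.19. Ccl2, at 1.82-fold, was 1 of only 2 chemokine genes in qHSCs under 2-fold. Ccl24 (eotaxin-2) was the exception among the CC chemokines, at 3.32 FPKM in the label-negative against 8.11 in the label-positive fraction.

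Both ligands of Ccr4, which are made mainly by dendritic cells and macrophages, were higher in label-negative cells but at low levels. Ccl22 was at 4.06 against 0.782 FPKM and Ccl17 at 1.73 against 0.197. Xcl1 (lymphotactin), a product of NK and CD8 T cells, was at 83.8 in label-negative against 7.28 in label-positive cells. A predicted gene on the opposite strand that shares exon sequence with Xcl1, Gm20743, was at 8.18 against 0.823, and whether the reads were counted by strand is not given in the sources used here.

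The CXC chemokines went both ways. Of 9 rows, 6 were higher in label-positive and 3 in label-negative cells, with a median log2 ratio of 1.22. The ligands of Cxcr3, which are induced by interferon and attract activated T cells, showed the largest differences among chemokine genes higher in label-positive cells. Cxcl10 was at 407 FPKM in label-positive against 74.0 in label-negative cells, ranked 108 of 5716 rows in the former and 606 in the latter. An exon of Art3 overlaps Cxcl10 on the opposite strand. The 5.50-fold difference of Cxcl10 was larger than that of 91.3% of the 2873 rows higher in label-positive cells with both values above 0. Cxcl9 was at 48.6 against 12.5, a difference of 3.90-fold. Cxcl16, the membrane-anchored ligand of Cxcr6, was at 158 against 67.5, and Zmynd15, whose exons overlap those of Cxcl16 on the opposite strand, was at 104 against 42.8. Cxcl13, the B cell attractant of lymphoid follicles, was at 13.2 against 6.59. Cxcl14, a chemokine of epithelia and stroma, went the other way, at 1.23 in label-positive and 2.90 in label-negative cells.

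The CXC chemokines with an ELR motif, which attract neutrophils through Cxcr1 and Cxcr2, were split although they lie side by side on chromosome 5. Cxcl1 was at 153 FPKM in label-positive against 58.8 in label-negative cells. Cxcl2 showed the reverse, at 114 against 324, and Cxcl3 did so at a low level, at 0.956 against 3.83. Cxcl5 was below 1 FPKM in both fractions, from 0.201 in label-negative to 0.701 in label-positive cells. In summed FPKM over these 4 genes the fractions were closer, at 387 in the label-negative against 268 in the label-positive fraction, because Cxcl2 made up most of the sum in the former and Cxcl1 in the latter. Cxcl2 and Cxcl3 transcripts share 126 stretches of 50 bases in GENCODE vM21, 5.84% of those of Cxcl2 and 3.51% of those of Cxcl3, so some reads could have been assigned to either gene.

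The sequences before the starts of Cxcl1, Cxcl2, Cxcl3 and Cxcl10 are shown because these genes share a motif yet stood on opposite sides of the comparison. Each is the 250 bases upstream of the RefSeq start (GRCm38.p6), read 5′ to 3′ on the strand of the gene. The windows are chr5:90890995-90891244 on the plus strand for Cxcl1, chr5:90903649-90903898 on the plus strand for Cxcl2, chr5:90785851-90786100 on the plus strand for Cxcl3 and chr5:92348890-92349139 on the minus strand for Cxcl10. Capitals mark matches to the NF-kB motif (GGGANTTTCC or GGGANTTCCC) and, in Cxcl10 alone, the farther of its capital runs is a match to the interferon-stimulated response element (ISRE, GAAANNGAAA).
Cxcl1: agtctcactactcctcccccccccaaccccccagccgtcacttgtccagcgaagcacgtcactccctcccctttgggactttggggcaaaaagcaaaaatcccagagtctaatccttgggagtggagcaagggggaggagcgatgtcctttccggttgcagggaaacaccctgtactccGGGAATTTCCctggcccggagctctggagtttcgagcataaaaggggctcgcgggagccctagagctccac
Cxcl2: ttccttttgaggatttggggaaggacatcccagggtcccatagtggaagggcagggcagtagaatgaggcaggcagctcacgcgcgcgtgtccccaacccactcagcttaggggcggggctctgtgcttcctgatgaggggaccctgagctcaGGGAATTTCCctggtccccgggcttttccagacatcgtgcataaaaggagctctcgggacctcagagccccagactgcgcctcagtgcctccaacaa
Cxcl3: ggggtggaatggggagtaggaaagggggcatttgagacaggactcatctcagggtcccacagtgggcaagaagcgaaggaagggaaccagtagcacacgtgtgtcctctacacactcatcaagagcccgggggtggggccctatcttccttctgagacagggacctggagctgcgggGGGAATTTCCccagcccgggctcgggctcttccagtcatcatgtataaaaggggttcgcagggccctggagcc
Cxcl10: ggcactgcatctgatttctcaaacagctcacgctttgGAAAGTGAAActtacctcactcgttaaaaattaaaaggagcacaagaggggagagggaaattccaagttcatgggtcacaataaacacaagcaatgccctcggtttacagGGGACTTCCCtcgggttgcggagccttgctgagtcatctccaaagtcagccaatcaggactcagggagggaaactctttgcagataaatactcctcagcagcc

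Cxcl1, Cxcl2 and Cxcl3 held the same 10 letters, GGGAATTTCC, from 71 to 62, 97 to 88 and 73 to 64 bases before the start. Cxcl10 held GGGACTTCCC from 103 to 94 bases and GAAAGTGAAA from 213 to 204 bases before the start. RefSeq windows were found for 29 of the 39 chemokine genes, and 5 of the 29 held the NF-kB motif on either strand, the fifth being Ccr6. Among all 32851 windows of this length, 0.673% held it. Of these 5 genes, Cxcl1 and Cxcl10 were higher in label-positive cells and Cxcl2, Cxcl3 and Ccr6 in label-negative cells. The ISRE letters were in the windows of Cxcl10 and Cxcl14, beside 2.98% of all windows, and these genes also differed in opposite directions. The letters GCGTGGGNG, which the EGR and WT1 family of zinc finger proteins is known to bind, were in none of the 29 and in 1.65% of all windows. A match to such letters is a description of the sequence and not of a bound site.

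Added over the listed chemokines, the make-up of the pool differed between the fractions. In label-negative cells the 11 CC chemokines made up 68.3% of the summed FPKM of 21 chemokines and the 9 CXC chemokines 27.5%. In label-positive cells the CC chemokines made up 17.1% and the CXC chemokines 82.2%. Ccl5 alone was 28.8% of the pool in the label-negative against 2.05% in the label-positive fraction. Cxcl10 was 3.70% of the pool in the label-negative against 37.4% in the label-positive fraction. The sums themselves were 1999 FPKM in the label-negative against 1090 in the label-positive fraction, and they leave out any chemokine without a row.

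All 14 receptors not named Ackr were higher in label-negative cells, with a median log2 ratio of -3.28 and a range from -5.95 to -1.08. Ccr7, which guides dendritic and naive T cells to lymph nodes, had the largest ratio of any chemokine gene, 61.9-fold, at 138 FPKM in the label-negative against 2.22 in the label-positive fraction. Its ratio was larger than that of 99.6% of the 2711 rows of the same direction with both values above 0. Ccr6, a receptor of B cells and some T helper cells, was at 7.59 against 0.259. Ccr8 was at 2.34 against 0.0831 and Ccr4, the receptor of Ccl17 and Ccl22, at 2.19 against 0.114. Ccr6, Ccr8 and Ccr4 were thus above 1 FPKM in label-negative cells only.

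The other listed CC receptors had lower ratios. Ccr2, which brings monocytes out of the marrow, was at 68.2 FPKM in the label-negative against 7.93 in the label-positive fraction. Ccr1, a receptor of Ccl3, Ccl5, Ccl6 and Ccl9, was at 33.5 against 7.68. Ccr9, a gut-homing receptor, was at 14.8 against 2.16, and exons of other genes overlap its own on both strands. Ccrl2, which is known to bind chemerin and is counted here with the CC receptors by its name, was at 224 against 106, the smallest ratio of the 14.

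Cxcr4, the receptor of Cxcl12 found on most leucocytes, had the highest FPKM among the receptors, at 278 in the label-negative against 22.7 in the label-positive fraction. Cxcr3, the receptor of Cxcl9 and Cxcl10 on T and NK cells, was at 24.2 against 2.21. Cxcr5, the B cell receptor of Cxcl13, was at 16.9 against 0.664, and an exon of Bcl9l overlaps it on the opposite strand. The neutrophil receptors were Cxcr2, at 33.1 against 8.32, and Cxcr1, at 1.11 against 0.154. Xcr1, found on cross-presenting dendritic cells, was at 2.23 against 0.632.

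Of the 3 receptors named Ackr, Ackr1 and Ackr2 were higher in label-positive cells, unlike the other receptors, and Ackr3 was not. Ackr1, the Duffy antigen of venous endothelium and red cells that carries inflammatory chemokines across a vessel wall, was at 228 FPKM in label-positive and 74.9 in label-negative cells. In GENCODE vM21 an exon of Ackr1 overlaps one of Cadm3 on the same strand. Ackr2, a scavenger of inflammatory CC chemokines, was at 22.3 against 8.46. Ackr3, which binds Cxcl12, was at 5.76 in label-positive and 10.3 in label-negative cells, a difference of 1.79-fold. Over all 17 receptors, the 3 named Ackr made up 9.97% of the summed FPKM in the label-negative against 61.4% in the label-positive fraction. Ackr1 alone made up 54.7% in the latter. Ccrl2, counted with the other receptors, made up 23.9% in the label-negative and 25.4% in the label-positive fraction.

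**Figure D2:**
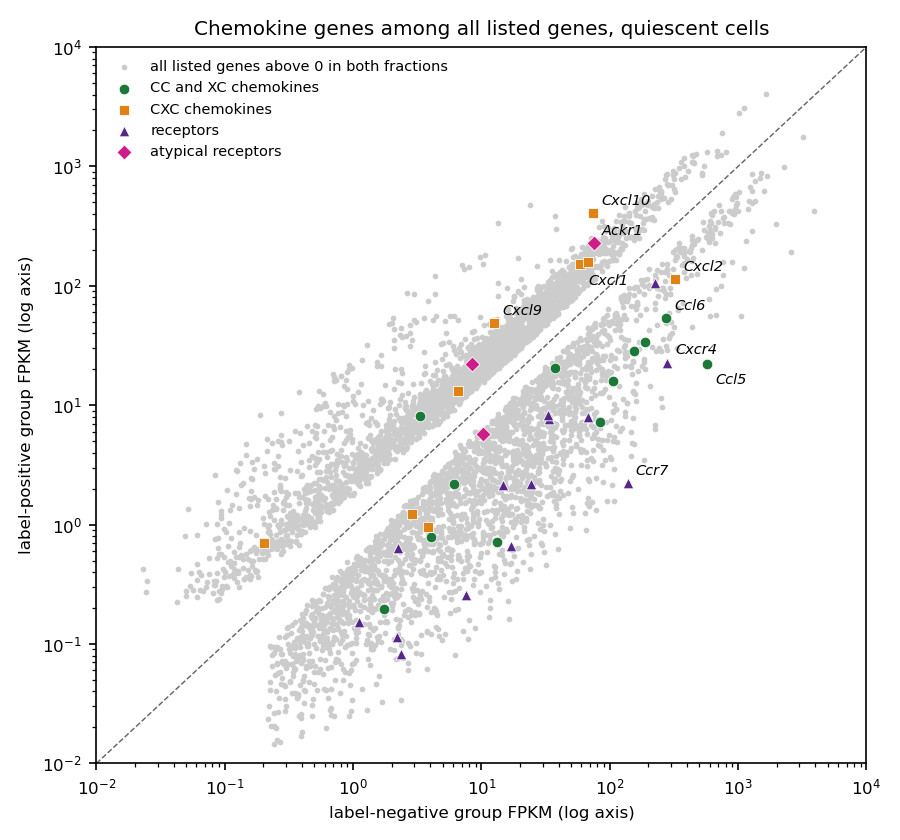
Group FPKM in label-negative (horizontal log axis) and label-positive (vertical log axis) qHSCs, with grey points for listed genes above 0 in both fractions and coloured points for the 38 chemokine genes by class, the dashed line marking equal values. Genes near the dashed line have no row. The receptors not named Ackr (triangles) all lie under it, with Ccr7 farthest away, and Cxcl10, Cxcl9 and Ackr1 lie above it.

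The ratios of the chemokine genes can be set beside those of all genes of their own direction. The 2711 rows higher in label-negative cells with both values above 0 had a median log2 ratio of -2.02, with the tenth and ninetieth percentiles at -4.01 and -0.95. By definition 10% of these rows lie beyond either percentile. Of the 29 chemokine genes in this direction, Ccl5, Ccl11, Ccr4, Ccr6, Ccr7, Ccr8 and Cxcr5 lay beyond -4.01. Ccl2 and Ackr3 lay between 0 and -0.95. The 2873 rows higher in label-positive cells had a median of 1.31 and a narrower spread, from 0.77 to 2.30 at the same percentiles. Of the 9 chemokine genes in this direction, only Cxcl10, at 2.46, lay beyond 2.30, beside 10% of all those rows. None lay under 0.77.

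Setting ligands beside their receptors, 11 of 16 ligand and receptor pairs were higher in the same fraction, label-negative in each case, and 5 were higher in opposite fractions. The pairs that were both higher in label-negative cells were Ccl3, Ccl5, Ccl6 and Ccl9 with Ccr1, Ccl2 and Ccl7 with Ccr2, Ccl17 and Ccl22 with Ccr4, Xcl1 with Xcr1, and Cxcl2 and Cxcl3 with Cxcr2. In the other 5, the ligand was higher in label-positive and the receptor in label-negative cells. These were Cxcl9 and Cxcl10 with Cxcr3, Cxcl13 with Cxcr5, and Cxcl1 and Cxcl5 with Cxcr2. The widest gap was that of Cxcl10, at a log2 ratio of 2.46, and Cxcr3, at -3.46. Every receptor in these pairs was higher in label-negative cells, so the direction of a pair followed that of its ligand alone. No atypical receptor was paired.

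**Figure D3:**
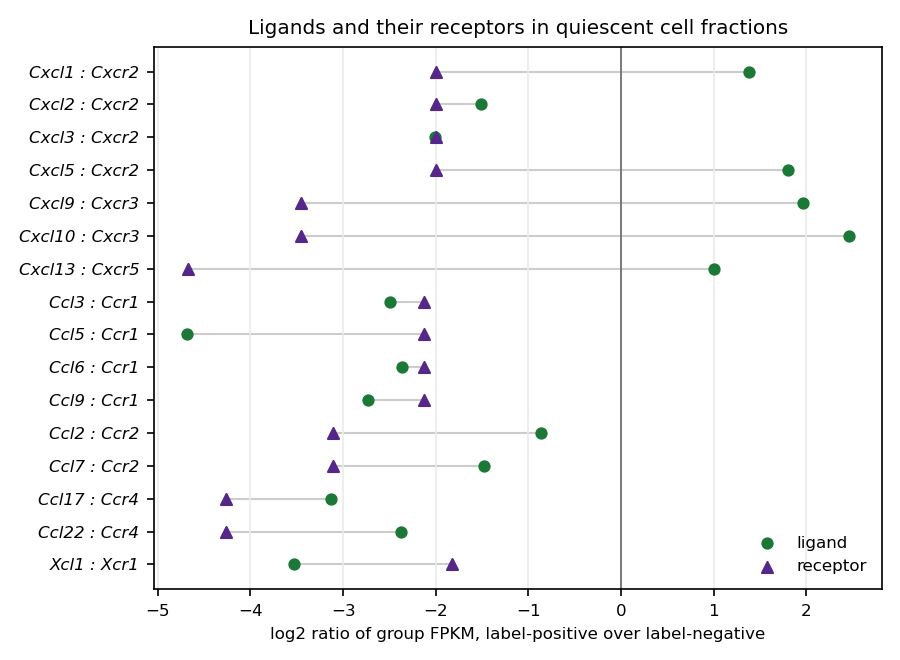
Log2 ratio of group FPKM, label-positive over label-negative (horizontal axis), for 16 ligand and receptor pairs in qHSCs, with green circles for ligands and purple triangles for receptors. All triangles lie to the left of 0, the circles of Cxcl1, Cxcl5, Cxcl9, Cxcl10 and Cxcl13 lie to the right, and the circle of Cxcl3 lies under the triangle of Cxcr2.

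Chemokine genes arose by local duplication and many lie side by side. By their order in RefSeq, with gaps of at most 500000 bases, the listed genes formed groups in which all members were higher in label-negative cells, namely Ccl2, Ccl7 and Ccl11, and Ccl5, Ccl9, Ccl6, Ccl3 and Ccl4, both on chromosome 11, Ccr9, Xcr1, Ccr1 and Ccr2 on chromosome 9, Ccl22 and Ccl17 on chromosome 8, and Cxcr2 and Cxcr1 on chromosome 1. Cxcl9 and Cxcl10, side by side on chromosome 5, were both higher in label-positive cells. The group of Cxcl5, Cxcl3, Cxcl1 and Cxcl2 on chromosome 5 was the only mixed one, with 2 genes higher in each fraction. Neighbouring genes are not independent of each other, and these counts are a description.

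Downstream of the receptors, 44 of 62 genes of a list of the pathway had a row in qHSCs. Of these, 29 were higher in the label-negative against 15 in the label-positive fraction, beside 49.6% of all 5716 rows higher in label-negative cells. Their median log2 ratio was -1.57, beside 0.64 over all rows above 0 in both fractions. The Src family and adaptor kinases were all 5 higher in label-negative cells, the highest being Lck, the kinase of T cell receptors, at 156 against 12.6 FPKM. Of 12 genes of Rac activation and actin, 8 were higher in label-negative cells. Coro1a (coronin 1A, an actin regulator of leucocytes) was at 668 against 56.9, while Rac1, at 301 against 535 in label-positive cells, Wasl, at 26.3 against 54.0, Tiam1, at 24.7 against 54.0, and Vav3, at 10.8 against 19.1, went the other way. The leucocyte paralogues Rac2, Was and Vav1 were higher in label-negative cells, at 160 against 15.4, 37.0 against 5.52 and 42.5 against 6.22, and were chosen as such after their values were seen.

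Phosphoinositide signalling had 8 rows, 6 of them higher in label-negative cells, led by Prkcd (protein kinase C delta) at 97.4 against 19.2 FPKM. Plcb3 and Plcb4, phospholipases C, were the exceptions, at 14.7 and 17.6 in label-negative against 36.4 and 49.6 in label-positive cells. Of 12 G protein subunits and regulators, 7 were higher in label-negative cells, beside 49.6% of all rows. Rgs2, which speeds the shut-off of G proteins, was at 277 against 49.0. Subunits were on both sides, with Gng2, at 43.3 against 9.24, and Gng10, at 61.8 against 30.6, also higher in label-negative cells. The other 5 genes, all subunits, were higher in label-positive cells, namely Gng11, at 68.2 against 194, Gng12, at 41.7 against 104, Gnb4, at 19.9 against 46.6, Gnb5, at 3.09 against 5.95, and Gnai1, at 1.31 against 3.26.

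Of the receptor kinases and arrestins, Grk6 and Adrbk2 were higher in label-negative cells, at 59.4 against 16.4 and 9.29 against 3.06 FPKM. Arrb1 (beta-arrestin 1) was the reverse, at 47.3 against 106. All 3 listed genes of chemokine presentation and cleavage were higher in label-positive cells. Dpp4 (CD26), a peptidase that clips the amino terminus of Cxcl9 and Cxcl10 among others, was at 423 in label-positive against 187 in label-negative cells. Sdc3 (syndecan-3), a heparan sulphate carrier on which chemokines can be held, was at 137 against 52.9. Adam10, which sheds Cxcl16 from the membrane, was at 76.0 against 50.05. The platelet chemokine Ppbp, which the rule on names leaves out, was at 8.21 in the label-negative against 2.99 in the label-positive fraction.

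Markers of other cell types also differed between the fractions, in both directions. The 14 T, NK and B cell markers all had a row and were all higher in label-negative cells, with a summed FPKM of 1292 against 40.1 and log2 ratios from -5.92 to -3.94, a range that also held Ccl5, Ccl11, Ccr4, Ccr6, Ccr8 and Cxcr5. The 8 listed neutrophil markers were all higher in label-negative cells, with a sum of 2306 against 459. Of 6 listed dendritic cell markers 5 were higher in label-negative cells, but Ccr7 and Xcr1 are themselves on that list. The 10 sinusoidal endothelial markers were all higher in label-positive cells, with a sum of 9775 against 3604 and log2 ratios from 1.32 to 1.86, a range that held Cxcl1, Cxcl5, Ackr1 and Ackr2. The 8 hepatocyte markers were also all higher in label-positive cells, with a sum of 1146 against 169. Of 10 listed Kupffer cell and macrophage markers 8 were higher in label-positive cells, while Lyz2 and Cd68 were higher in label-negative cells, at 1283 against 289 and 68.5 against 40.5. The ranges of the lists overlap, so a ratio within a range is not particular to that cell type. Of the 38 chemokine genes, 22 lay within the range of the neutrophil and 19 of the Kupffer cell and macrophage markers. The range of the dendritic cell markers held 16 and that of the stellate cell markers 30. Cxcl5, Cxcl9, Cxcl10 and Ackr1 lay within that of the hepatocyte markers. The neutrophil and stellate cell counts depend on single markers at low level. Mpo, at 6.18 FPKM in label-negative against 0.0812 in label-positive cells, alone took the neutrophil range to -6.25. Ngfr, at -3.82, and Rgs5, at 2.13, set the ends of the stellate cell range. The other listed stellate cell markers lay between -1.52 and -1.15. No listed marker was at 0 in either fraction, and the part of these cell types in the chemokine values was not tested.

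Of 12 stellate cell markers, 6 had a row. Pdgfrb, Ngfr, Col1a1, Lum and Dcn were higher in label-negative cells and Rgs5 in label-positive cells. Their levels were mostly low, with Pdgfrb at 0.905 in the label-negative against 0.370 in the label-positive fraction, Ngfr at 0.488 and 0.0344, and Dcn the highest at 109 and 49.0. Lrat, Des, Reln, Hand2, Col3a1 and Acta2 had no row and were not analysed here. The summed FPKM of the 6 was 129 in label-negative against 59.2 in label-positive cells. That of the 10 sinusoidal endothelial markers was 3604 against 9775, and that of the 8 neutrophil markers 2306 against 459. Both sums were thus above that of the listed stellate cell markers in either fraction. The sum of the 14 T, NK and B cell markers, 1292 against 40.1, was above it in label-negative cells only.

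**Figure D4:**
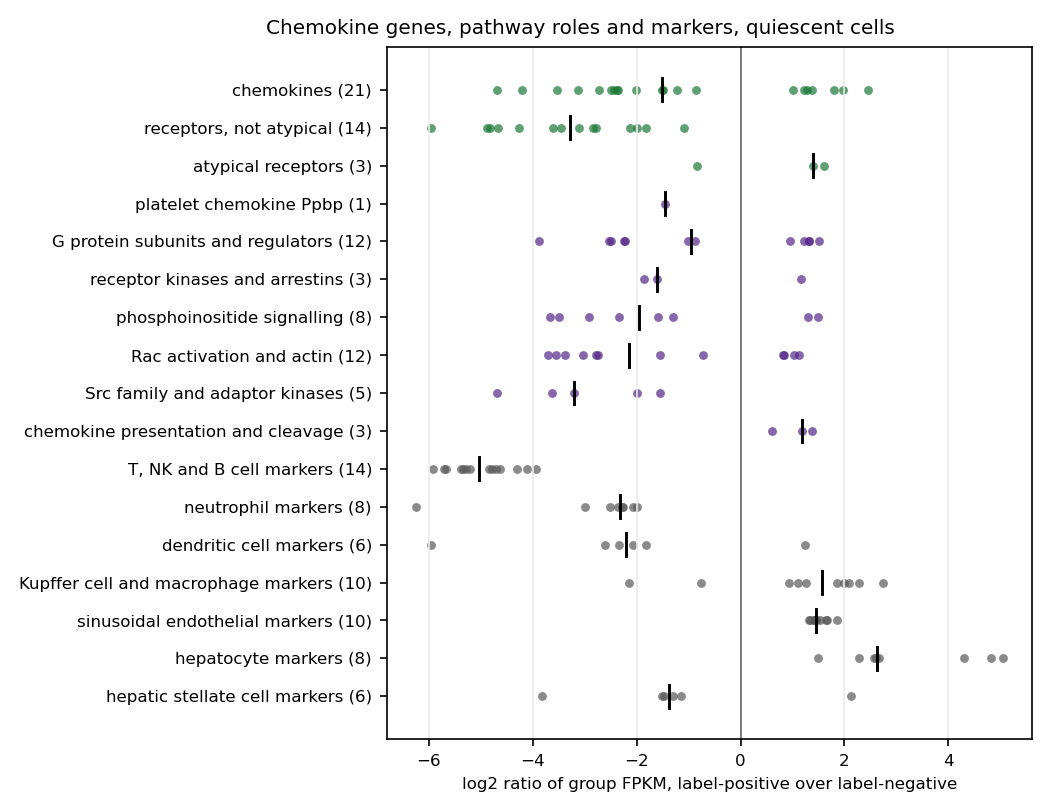
Log2 ratio of group FPKM, label-positive over label-negative (horizontal axis), of each listed gene in qHSCs, with chemokine genes in green, pathway roles in purple and cell type markers in grey, the number of genes in brackets and a black bar at each median. The receptors not named Ackr and the T, NK and B cell markers lie wholly to the left of 0. The endothelial and hepatocyte markers lie wholly to the right, where 2 of the 3 Ackr receptors also lie.

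In activated cells few chemokine genes had a row. In GFP-low aHSCs, 4 of the 5 genes described were lower in the WT1-deleted group, beside 62.8% of the 419 named rows. The median log2 ratio, WT1-deleted over control, was -1.38 over the 5 genes and -1.33 over all named rows above 0 in both groups, so the chemokine genes lay close to the rest of the table. Each group combined 2 samples.

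Ccl6 was among the highest rows of that table, at 1200 FPKM in controls against 434 after WT1 deletion, ranking 3 of 419 in both groups. Ccl3 was at 90.1 in control against 34.7 in WT1-deleted cells. Cx3cr1, the fractalkine receptor of monocytes, macrophages and NK cells and the only chemokine gene here without a qHSC row, was at 35.5 against 14.9. A predicted gene overlaps an exon of Cx3cr1 on the opposite strand. Cxcl14 was at 71.4 against 20.0. Cxcl5, an ELR chemokine that attracts neutrophils, was the only chemokine gene that was higher in WT1-deleted cells, at 200.1 against 65.9 FPKM, a difference of 3.04-fold.

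The 8 listed rows of Kupffer cell and macrophage markers were all lower in the WT1-deleted GFP-low cells, with a summed FPKM of 3241 in controls against 751 after WT1 deletion and log2 ratios from -2.36 to -1.42. The ratios of Ccl6, at -1.47, and Cxcl14, at -1.84, lay within that range, and those of Ccl3, at -1.38, and Cx3cr1, at -1.25, were smaller in size. The 5 listed neutrophil markers were lower too, with a sum of 729 against 219. The stellate cell markers Lum and Rgs5 were higher in WT1-deleted cells, at 122 against 38.1 and 8.20 against 1.41. Listed dendritic cell markers were lower in WT1-deleted cells, with Itgax at 54.2 in controls against 18.4 and a row naming Clec1b and Clec9a at 42.2 against 14.1. The sinusoidal endothelial marker Stab1 was lower as well, at 120 against 30.8. The part of macrophages, neutrophils, dendritic cells and endothelium in the chemokine values was not tested.

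Of the 62 genes of the pathway list, 7 had a row in GFP-low cells, all lower in the WT1-deleted group, beside 62.8% of the 419 named rows. The highest was Rgs1, a brake on chemokine receptor signalling in leucocytes, at 434 FPKM in controls against 95.1 after WT1 deletion. Pf4 (platelet factor 4, also called Cxcl4), which the rule on names leaves out, was at 209 against 27.5. Sdc3 was at 145 against 51.8 and Sdc1 at 101 against 44.6. Prkcb was at 21.3 against 8.04, Plcb2 at 10.8 against 3.83 and Dock2, a Rac activator of leucocytes, at 29.9 against 12.7.

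In GFP-high aHSCs the only chemokine gene with a row was Ccl11, at 0.611 FPKM in controls against 5.76 after WT1 deletion, a difference of 9.44-fold from a low level. With a pseudocount of 1 its log2 ratio was 2.07 in place of 3.24. Each value combined 3 samples, and 77.2% of the 123 named rows of that table were higher in the WT1-deleted group. Pf4 was the only gene of the pathway list with a row, at 23.1 against 65.6, the opposite direction to that in GFP-low cells, and a difference between the fractions, which share 5 animals, was not tested. The 6 listed neutrophil markers were lower in WT1-deleted GFP-high cells, with a sum of 520 against 149, and Lum was higher, at 136 against 42.6. No row names Wt1 itself in any of the tables, so the deletion could not be checked on its target here.

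**Figure D5:**
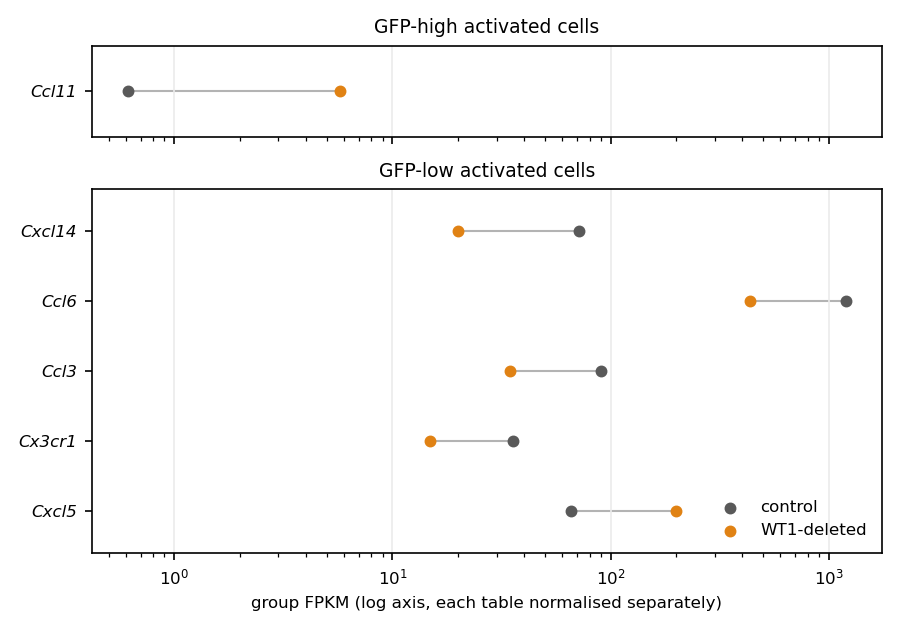
Group FPKM (horizontal log axis) of the chemokine genes described for GFP-high aHSCs (upper panel) and GFP-low aHSCs (lower panel), with grey points for control and orange points for WT1-deleted cells, each point combining 3 samples in the upper and 2 in the lower panel. The grey point lies to the right for Cxcl14, Ccl6, Ccl3 and Cx3cr1, and the orange point for Cxcl5 and Ccl11.

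The 5 genes with rows in both cell states can be set side by side, although the tables were normalised separately and levels are not comparable across them. Ccl11 was higher in label-negative qHSCs and in WT1-deleted GFP-high aHSCs. Ccl3 and Ccl6 were higher in label-negative qHSCs and in control GFP-low aHSCs. Cxcl14 was at a low level in both qHSC fractions, 2.90 and 1.23 FPKM, and at 71.4 and 20.0 in the aHSC groups. Cxcl5 was below 1 FPKM in both qHSC fractions and at 65.9 and 200.1 in the aHSC groups. How far these levels differ between the cell states was not tested.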

How the data were processed

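RNA of 16 sorted samples was sequenced on an Illumina HiSeq. The authors mapped reads with bowtie 2 and compared groups with Cuffdiff2. The submitters' processing notes name TopHat2 2.0.3, Cufflinks 2.0.1, DESeq2 and the builds mm9 and mm10 without saying which was used for what. The authors deposited FPKM, 1 value for each group and gene, for genes listed in their comparison. Their comparison tables also hold fold changes, p-values and q-values, which were not used. No column of values per sample was left unused. With 1 value for each group, the tests planned for counts or values per sample could not be made.

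The log2 ratio of group FPKM was computed where both values were above 0, with no pseudocount, on all named rows. Unnamed loci (108 for GFP-high cells, 149 for GFP-low cells) were left out. No chemokine row named several genes or held a 0. The ratio and its counts were tested on simulated data.

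A gene that meets the rule on names is not reported here, and its rows enter only the values over all rows. Every other chemokine gene with a row was named, with both FPKM values where the higher was at least 1, as was the highest row of each pathway role and any against the direction of most of its role. The chemokine genes, roles, pathway, pairs and marker lists were chosen with earlier results of these data known, and support nothing by their choice. Exon overlaps and stretches of 50 bases shared between chemokine genes were taken from GENCODE vM21, and neighbours and upstream sequence from RefSeq (GRCm38.p6), the builds of which may differ from that of the files. Calculations used Python 3.11.15, pandas 2.3.3 and numpy 2.4.6, and figures matplotlib 3.10.9. The alternatives were a minimum FPKM of 1 in the higher of both groups, a difference of at least 2-fold, rows that name 1 gene, and pseudocounts of 0.1 and 1.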

Additional observations from a re-analysis of the deposited data

How the results depend on the processing

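In qHSCs, 29 chemokine genes were higher in label-negative cells, 29 with a minimum FPKM of 1 in the higher of both groups and 27 at a difference of at least 2-fold. For label-positive cells these counts were 9, 8 and 9. Requiring rows that name 1 gene could change no count, since no qHSC row names several genes. In aHSCs every chemokine row was above 2-fold and above 1 FPKM in the higher group, so these requirements could change no count there. Adding a pseudocount of 1 moved the median log2 ratio of the 38 genes in qHSCs from -2.24 to -1.503, since many label-positive values were below 1 FPKM, and a pseudocount of 0.1 left it at -2.17. A pseudocount added to both values cannot change the direction of a ratio, only its size. Of 44 single ratios, 3 moved by more than 1.5-fold with the pseudocount of 0.1 (Ccr4, Ccr8 and Cxcr1 in qHSCs). With the pseudocount of 1, 12 did so (Ccl11, Ccl17, Ccl22, Ccr4, Ccr6, Ccr8, Cxcl3, Cxcl5, Cxcr1, Cxcr5 and Xcr1 in qHSCs and Ccl11 in GFP-high cells). The large ratios of low genes therefore depend on values well below 1 FPKM. Leaving out single replicates was not possible, because the files hold combined group values. No paired analysis was possible because the result comes from no test and no value per animal was in the tables used here. Depth is unknown, so no interval can be given for any value.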
